A study of Mus musculus with 16 samples.

Results

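The proteins that modify, read and move nucleosomes were followed through their RNA in mouse fibroblasts exposed to azacytidine. The genes were taken by name from the probe annotation: histone deacetylases and sirtuins, lysine acetyltransferases, lysine demethylases, lysine and arginine methyltransferases, remodelling ATPases and their partners, bromodomain and chromodomain readers, high mobility group proteins and histone genes. This gave 105 of 20355 probes, for 72 genes. No measured value entered the naming rule, although it was chosen with earlier results of these data known. Of the 72 genes, 62 had enough arrays to be tested. Cells were of 3 kinds: NIH3T3 cells transfected with Erbb2 and given 10 µM azacytidine (8 arrays), the same transfected cells given 5 µM (4 arrays), and NIH3T3 cells without the transfection given 10 µM (4 arrays). Each array set treated against untreated RNA of one line in its 2 dyes, with the treated RNA in Cy5 on 50% of the arrays of a group. NIH3T3 is an established mouse fibroblast line, Erbb2 is a receptor tyrosine kinase oncogene, and azacytidine is a cytosine analogue that enters nucleic acids and traps DNA methyltransferases. No source used here gives the construct that drives Erbb2, the number of transfected clones or the length of the treatment.

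DNA is wrapped around histones, and enzymes that add or remove acetyl and methyl groups on the histone tails mark stretches of it as open or closed. Acetylation goes with active genes and is removed by deacetylases, whereas Polycomb and heterochromatin methylation goes with silence and is read by chromodomain proteins. DNA methylation is tied to this system, since proteins that bind methylated CG pairs bring deacetylases and histone methyltransferases with them.

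Each value is a log2 ratio, treated over untreated, fitted by limma and given with its standard error (±). A gene passed when its p, adjusted by Benjamini-Hochberg over 12420 features, was under 0.05. The files do not say which dye is the numerator. The ratios were read as Cy5 over Cy3 and turned where the treated RNA was in Cy3, so every direction below is given as read and is not settled. For untransfected cells both channels carry the same dye label, and with the other dye every value of that group changes sign. An array gave between 16153 and 18507 ratios, and values of the 62 genes were present for between 53 and 62 of them on each array. Ratios show no level, so neither the fibroblast identity of the cells nor the transfected gene can be checked by level. Of 7 fibroblast markers measured, 0 passed in Erbb2 cells at either dose, with 1 at an unadjusted p under 0.05 in limma at each, and 3 were lower in untransfected cells, where 1 of 4 epithelial markers was higher. The part of these shifts in the values below was not tested. A lower value cannot tell less RNA per cell from fewer cells of a kind.

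At 10 µM in Erbb2 cells, 0 of the 62 chromatin genes passed, where 1.26% of all features did, and 5 had an unadjusted p under 0.05 in limma, or 8.06% against 10.8% of all features. At 5 µM 0 passed against 0.209% of all features, and 4 genes, 6.45%, had an unadjusted p under 0.05 against 6.33%. In untransfected cells 0 passed against 2.73%, and 11 genes, 17.7%, had an unadjusted p under 0.05 in limma against 11.5%. Leaving out untransfected array 1, 2, 3 or 4 brought these 11 to 4, 6, 7 or 3, against 10.2%, 10.3%, 10.8% or 10% of all features. The median over the 62 genes was -0.07 with Erbb2 at 10 µM, 0.03 with Erbb2 at 5 µM and 0.05 without Erbb2. Over all features it was -0.003 with Erbb2 at 10 µM, -0.02 with Erbb2 at 5 µM and 0.03 without Erbb2. The chromatin genes thus lay around 0 in each group, with members on both sides of it. Above 0 lay 27 of 62 with Erbb2 at 10 µM (43.5%, against 49.4% of all features), 32 with Erbb2 at 5 µM (51.6% against 47.7%) and 33 without Erbb2 (53.2% against 53.1%).

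The precision bounds what could be seen. The median standard error over the 62 genes was 0.26 in Erbb2 cells at 10 µM and 0.35 in each of the groups with 4 arrays. In Erbb2 cells at 10 µM the 95% interval of 38 genes, 61.3%, lay within a 2-fold change in either direction, against 63.5% of all features, and that of 20 genes, 32.3%, lay within a 1.5-fold change, against 28.2%. At 5 µM the interval of 32 genes, 51.6% against 47.6%, and in untransfected cells that of 29 genes, 46.8% against 42.7%, lay within a 2-fold change. For these genes a change beyond 2-fold fell outside the interval, and for the others the arrays did not bound it that closely.

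**Figure D1:**
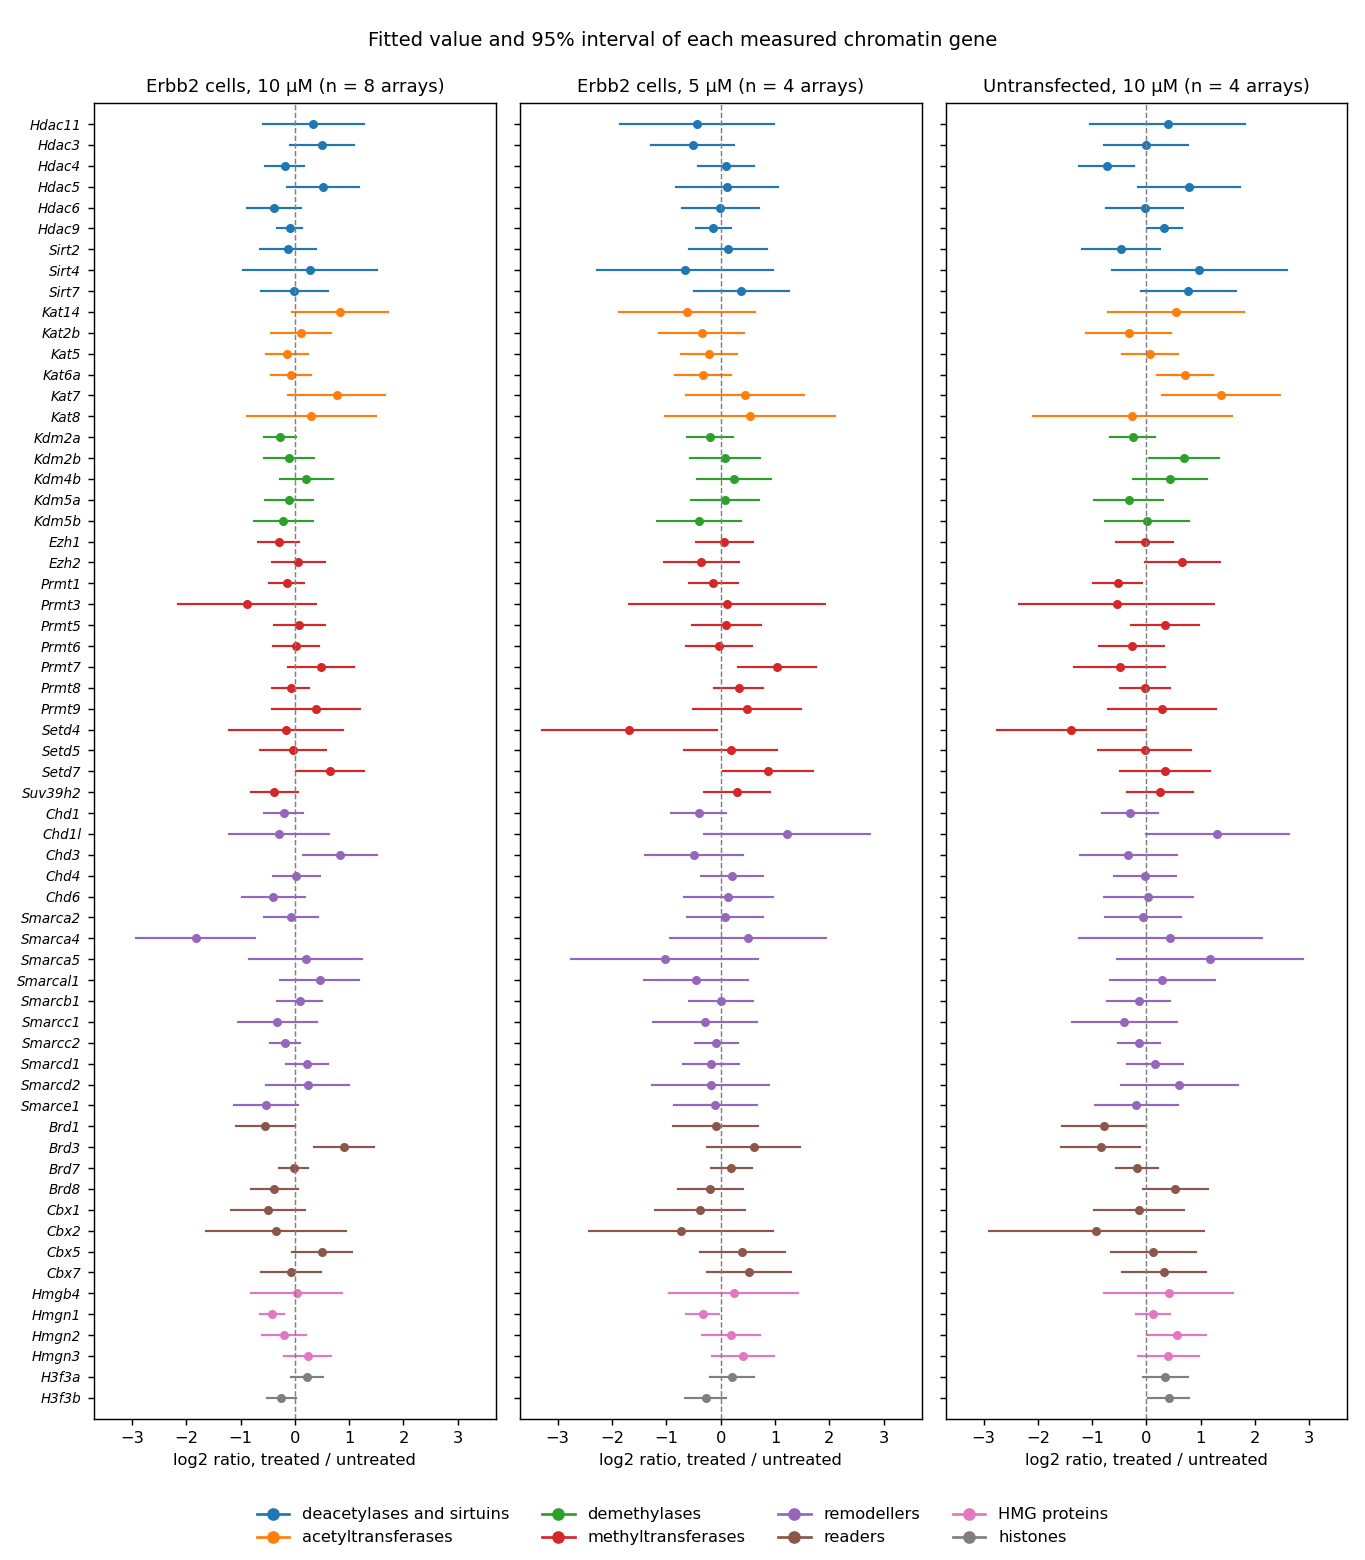
Fitted log2 ratio of treated over untreated cells (x axis) with its 95% interval for the 62 measured chromatin genes (rows, coloured by family), in Erbb2 cells at 10 µM, Erbb2 cells at 5 µM and untransfected cells at 10 µM. Points lie on both sides of 0 in each panel, and intervals are wider in the groups of 4 arrays.

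The high mobility group proteins bend DNA or bind nucleosomes without modifying them, and those of the Hmgn kind loosen the compaction of chromatin. Among them Hmgn1 had the smallest adjusted p of all 62 genes in Erbb2 cells at 10 µM. Its ratios on those 8 arrays were -0.71 at the lowest, -0.47 at the median and -0.008 at the highest. At 5 µM they were -0.43, -0.40, -0.33 and -0.18, and in untransfected cells 0.08, 0.28, -0.002 and 0.10. All 12 arrays of Erbb2 cells lay below 0, and the highest of them lay just under the lowest untransfected array. Under the other dye label most untransfected arrays would lie below 0 too, and the lines would overlap. The fitted value at 10 µM was -0.42 ± 0.10 with an adjusted p of 0.0667, so Hmgn1 did not pass. At 5 µM it was -0.33 ± 0.14 with an adjusted p of 0.722, and in untransfected cells 0.11 ± 0.14.

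Hmgn2, the close relative of Hmgn1, had -0.20 ± 0.19 at 10 µM and 0.19 ± 0.25 at 5 µM in Erbb2 cells, and 0.56 ± 0.25 in untransfected cells. On the untransfected arrays it stood at 0.59, 1.02, 0.55 and 0.07, all above 0. Hmgn3, another nucleosome-binding member, lay between 0.24 and 0.41 in the 3 groups, and Hmgb4, a protein with HMG boxes known from the testis, between 0.04 and 0.41. None of these passed, and in limma 1 gene of the kind had an unadjusted p under 0.05 in each group, Hmgn1 at both doses and Hmgn2 in untransfected cells. There, all 4 measured proteins of the kind had values above 0, with a median of 0.41.

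Promoter windows were looked up because azacytidine acts on the methylation of CG pairs. RefSeq windows on GRCm38.p6, from 250 bases before to 50 bases after the start of a gene, were found for 60 of the 72 genes. Where a gene had several windows, the first listed was counted. The motif searched was CG, which reads the same on both strands. Windows of the chromatin genes held a median of 23 CG pairs per 300 bases, against 19 for the 8005 matched genes of the array, and 98.3% of them held at least 1, against 98.9% of those genes and 94.2% of all windows. Only 5 of the 60, or 8.3%, held fewer than 10, against 24.1% of the matched genes. The first 2 windows below belong to the genes with the smallest adjusted p in Erbb2 cells at 10 µM and in the comparison of the cell lines, and the third is a CG-poor window for contrast. CG pairs are in capitals and each sequence runs 5′ to 3′ along the gene's own strand, which is the minus strand for all 3 genes.
Hmgn1, chr16:96127676-96127975, 37 CG pairs: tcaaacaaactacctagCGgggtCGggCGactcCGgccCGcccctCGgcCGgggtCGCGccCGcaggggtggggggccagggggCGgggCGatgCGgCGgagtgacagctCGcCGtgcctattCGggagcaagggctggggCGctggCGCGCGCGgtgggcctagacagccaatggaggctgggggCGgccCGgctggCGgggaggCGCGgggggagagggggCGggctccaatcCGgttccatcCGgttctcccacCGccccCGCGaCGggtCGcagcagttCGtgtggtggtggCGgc
Brd3, chr2:27475349-27475648, 46 CG pairs: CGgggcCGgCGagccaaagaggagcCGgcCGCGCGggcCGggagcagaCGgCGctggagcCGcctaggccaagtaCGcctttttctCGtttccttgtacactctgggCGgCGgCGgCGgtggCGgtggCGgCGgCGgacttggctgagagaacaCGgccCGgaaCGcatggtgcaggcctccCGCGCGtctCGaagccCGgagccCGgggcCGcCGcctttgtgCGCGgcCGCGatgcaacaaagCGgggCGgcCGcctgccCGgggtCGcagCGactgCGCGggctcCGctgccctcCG
Hmgb4, chr4:128260846-128261145, 2 CG pairs: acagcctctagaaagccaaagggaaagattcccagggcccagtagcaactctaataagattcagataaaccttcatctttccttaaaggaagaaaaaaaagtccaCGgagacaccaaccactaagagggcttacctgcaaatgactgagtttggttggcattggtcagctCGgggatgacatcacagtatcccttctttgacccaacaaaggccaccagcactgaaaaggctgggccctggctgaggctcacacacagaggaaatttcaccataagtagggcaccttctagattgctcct
The Hmgn1 window was 76.0% G or C and the Brd3 window 75.0%, against 47.7% for Hmgb4, whose fitted values in the 3 groups lay within one standard error of 0. The other windows with fewer than 10 CG pairs were those of Hdac9, Setd5, Smarcd2 and Hdac8, with 0, 1, 4 and 6. Setd5 and Smarcd2 had adjusted p-values of 0.975 and 0.864 in Erbb2 cells at 10 µM, and 0.998 and 0.839 in untransfected cells. Hdac9, described with the deacetylases, had an unadjusted p of 0.0442 in limma in untransfected cells, and Hdac8 had too few arrays. Whether the CG content of a window goes with the response was not tested. The methylation of these windows was not measured on the arrays.

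Of the histone genes, the array held only H3f3a and H3f3b under the names searched, which encode one and the same replacement variant of histone H3. For H3f3b, averaged over its 2 probes, the ratios of the Erbb2 and the untransfected arrays did not overlap with the dyes as read. On the Erbb2 arrays at 10 µM it ran from -0.85 at the lowest through a median of -0.10 to 0.12 at the highest, and at 5 µM it stood at -0.19, -0.54, -0.20 and -0.17. In untransfected cells it stood at 0.49, 0.39, 0.34 and 0.42. In this mean the 4 untransfected arrays lay close together and above every Erbb2 array. Under the other dye label they would lie below 0, inside the range of the Erbb2 arrays at 10 µM. The share of all features whose groups lay apart like this was not counted, which holds for every such gene named here. For 1 of the 2 probes alone the groups overlapped, since at 10 µM it stood at 0.42 on Erbb2 array 3 and 0.41 on Erbb2 array 6, against 0.38 on untransfected array 2. Fitted values were -0.25 ± 0.12 with Erbb2 at 10 µM, -0.28 ± 0.18 with Erbb2 at 5 µM and 0.41 ± 0.18 without Erbb2, and none passed, although the value in untransfected cells had an unadjusted p of 0.0339 in limma. The 2 probes of H3f3b gave -0.29 and -0.21 in Erbb2 cells at 10 µM, against 0.33 and 0.50 in untransfected cells. H3f3a, from the other gene, was at 0.22 ± 0.14 with Erbb2 at 10 µM, 0.21 ± 0.19 with Erbb2 at 5 µM and 0.35 ± 0.19 without Erbb2. Of 21 measured S phase and proliferation genes 1, Pcna, was lower at 10 µM in Erbb2 cells (-0.48 ± 0.09, adjusted p = 0.0154), where 1.26% of all features passed. At 5 µM 0 passed against 0.209% of all features, with 2 at an unadjusted p under 0.05 in limma against 6.33%. In untransfected cells 0 passed against 2.73%, with 5 at an unadjusted p under 0.05 in limma against 11.5%. The median of these genes was 0.15 with Erbb2 at 10 µM, -0.05 with Erbb2 at 5 µM and 0.37 without Erbb2. In untransfected cells 19 of 21 had values above 0, against 53.1% of all features. Under the other dye label these 19 would lie below 0. The part of proliferation in the H3f3b values was not tested.

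Readers dock on modified histone tails. Brd3, a BET bromodomain protein that binds acetylated histones and supports transcription, had the highest value of the 62 genes in Erbb2 cells at 10 µM. Its ratios in Erbb2 cells at 10 µM, measured on 7 arrays, were -0.09 at the lowest, 0.75 at the median and 1.74 at the highest. On 3 arrays at 5 µM they were -0.29, -0.08 and 1.69, and on the untransfected arrays -2.30, -0.47, -0.12 and -0.50. Every untransfected array lay below 0 and below all Erbb2 arrays at 10 µM, of which 6 of 7 lay above 0. Under the other dye label the untransfected arrays would lie above 0 and overlap with these. The fitted values were 0.91 ± 0.25 with Erbb2 at 10 µM (adjusted p = 0.154), 0.61 ± 0.39 with Erbb2 at 5 µM and -0.85 ± 0.33 without Erbb2 (adjusted p = 0.319), the last at -0.49 without untransfected array 1. Without array 5 of Erbb2 cells at 10 µM, the value of that group became 1.15 ± 0.24 with an adjusted p of 0.0498 in limma, which passes. Over all single arrays left out, that value ran from 0.79 to 1.15. The dye term of the fit was -0.98 for Brd3, with an adjusted p of 0.571 in limma. A second Brd3 probe, with only 2 untransfected arrays, was not used in the fit and ran from -2.32 to 4.06 on the Erbb2 arrays at 10 µM.

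Brd1, a bromodomain partner of acetyltransferases, averaged over its 2 probes, was below 0 on all 8 Erbb2 arrays at 10 µM, from -1.22 to -0.03, with a value of -0.54 ± 0.26, and at -0.79 ± 0.36 in untransfected cells. Its single probes were not all below 0: on those 8 Erbb2 arrays one probe stood at 0.14, 0.79 and 0.05 (arrays 3, 5 and 7) and the other at 0.31 (array 1). Brd8, a subunit of the Kat5 acetyltransferase complex, had -0.38 ± 0.20 at 10 µM in Erbb2 cells, where array 1 at -1.92 lay far from the others, and 0.53 ± 0.28 in untransfected cells with all 4 arrays between 0.24 and 0.98. Among the chromodomain proteins, Cbx5 binds methylated histone H3 in heterochromatin. Averaged over its 3 probes it had 0.51 ± 0.26 with Erbb2 at 10 µM, 0.40 ± 0.37 with Erbb2 at 5 µM and 0.13 ± 0.37 without Erbb2. In Erbb2 cells the mean rests on 1 probe, at 1.70 with 10 µM and 1.18 with 5 µM. The others gave 0.02 and 0.08 at 10 µM, and 0.02 and -0.01 at 5 µM. Cbx2, a Polycomb reader, had wide errors and values of -0.35 ± 0.59 with Erbb2 at 10 µM, -0.73 ± 0.78 with Erbb2 at 5 µM and -0.92 ± 0.91 without Erbb2. Of the 8 readers measured, 2 had values above 0 in Erbb2 cells at 10 µM, 4 at the lower dose and 3 in untransfected cells. None of the 8 passed in any group, with 1, Brd3, at an unadjusted p under 0.05 in limma with Erbb2 at 10 µM, 0 with Erbb2 at 5 µM and 2, Brd3 and Brd1, without Erbb2.

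**Figure D2:**
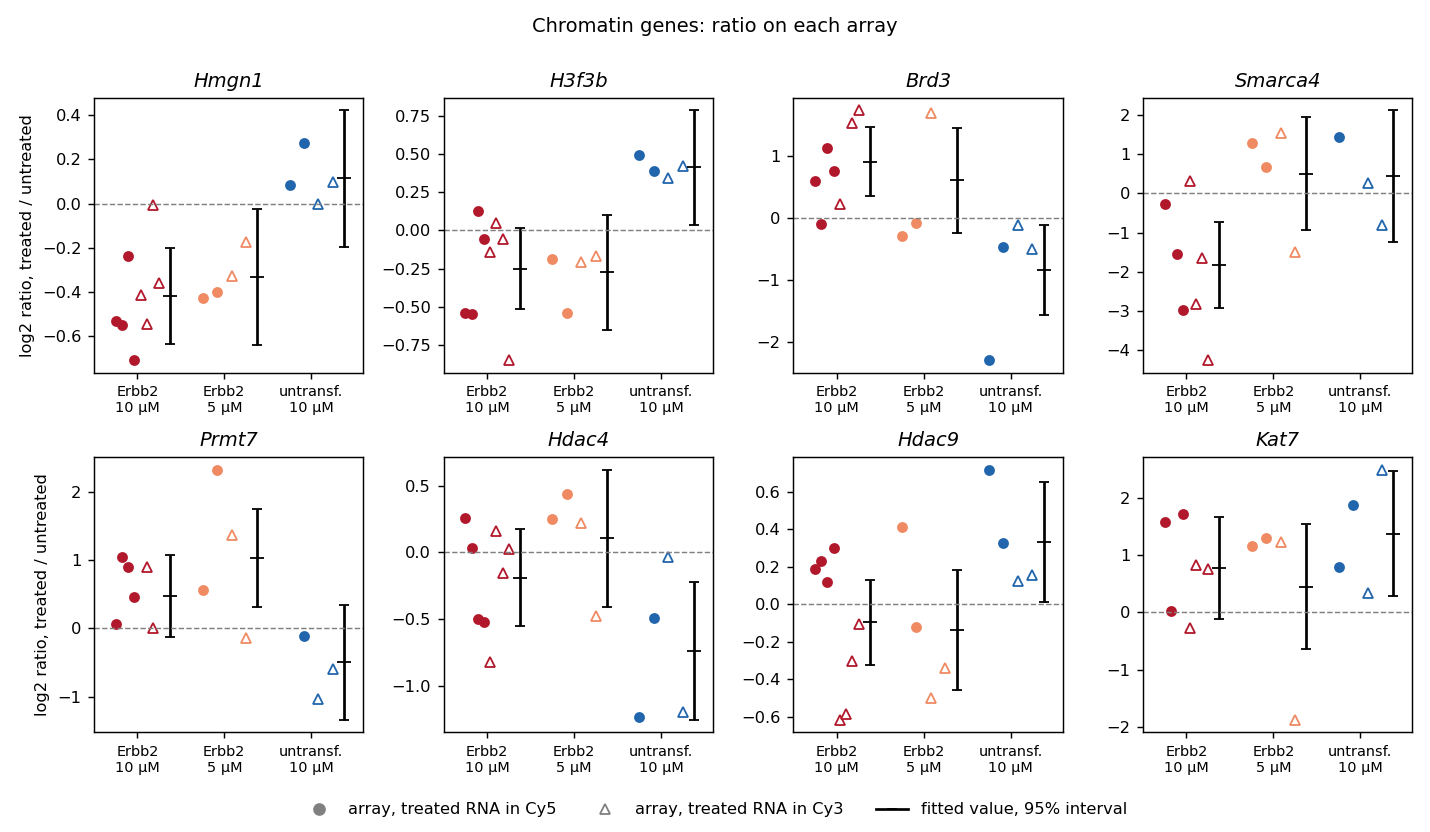
Log2 ratio of treated over untreated cells on each array (y axis) for 8 chromatin genes in Erbb2 cells at 10 µM, Erbb2 cells at 5 µM and untransfected cells at 10 µM. Filled circles are arrays with the treated RNA in Cy5, open triangles those with it in Cy3, and bars are the fitted value with its 95% interval. Hmgn1 lies below 0 on all 12 Erbb2 arrays, and for Hdac9 in Erbb2 cells at 10 µM the circles lie above 0 and the triangles below.

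Acetyltransferases write the mark that bromodomains read. Kat7, the catalytic subunit of the HBO complex that licenses replication origins, ran from -0.28 through a median of 0.79 to 1.71 on 6 Erbb2 arrays at 10 µM. At 5 µM it stood at 1.16, 1.29, 1.22 and -1.88, and in untransfected cells at 0.79, 1.88, 0.34 and 2.49. Most arrays of every group lay above 0 for Kat7, with array 4 at 5 µM far below the rest. Fitted values were 0.77 ± 0.41 with Erbb2 at 10 µM, 0.45 ± 0.50 with Erbb2 at 5 µM and 1.37 ± 0.50 without Erbb2, the last with an adjusted p of 0.254. Kat6a, the MOZ acetyltransferase of blood stem cells and leukaemia fusions, had -0.07 ± 0.17 in Erbb2 cells at 10 µM and -0.33 ± 0.24 at 5 µM, where all 4 arrays lay below 0. On the untransfected arrays it stood at 0.40, 0.16, 0.63 and 1.65, all above 0, for a value of 0.71 ± 0.24 with an adjusted p of 0.192. These Kat6a values are means over 3 probes, which disagreed. Alone they gave 0.05, 0.825 and 1.25 in untransfected cells, and -0.58, 0.04 and -0.46 at 5 µM. The probe at 1.25 stood at 4.755 on untransfected array 4, where the probe at 0.825 stood at -0.28. Without array 4 of untransfected cells the Kat6a value there was 0.39, and that of Kat7 was 0.83.

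Kat14, a subunit of the ATAC complex, had 0.83 ± 0.41 at 10 µM and -0.62 ± 0.58 at 5 µM in Erbb2 cells, and 0.54 ± 0.58 in untransfected cells. Its ratios in Erbb2 cells at 10 µM spread from -1.29 to 4.64, wider than those of the 4 untransfected arrays, which ran from 0.27 to 0.74. This spread went partly with the dye. Arrays with treated RNA in Cy5 stood at 1.16, 0.78, 4.64 and 1.91, and those with it in Cy3 at -1.29, -0.30, 0.80 and -1.04. The dye term of the fit was 1.55 for Kat14, with an adjusted p of 0.571 in limma. Kat5, the Tip60 acetyltransferase of DNA repair, had -0.15 ± 0.18 with Erbb2 at 10 µM, -0.22 ± 0.24 with Erbb2 at 5 µM and 0.06 ± 0.24 without Erbb2. Kat2b, a GCN-type coactivator, had 0.12 ± 0.26 with Erbb2 at 10 µM, -0.35 ± 0.37 with Erbb2 at 5 µM and -0.32 ± 0.37 without Erbb2. Of the 6 acetyltransferases, 0 passed in any group, and Kat6a and Kat7 in untransfected cells were the only values of the family with an unadjusted p under 0.05 in limma.

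Methyltransferases place marks of both kinds, those of active genes and those of silence. Prmt7, which adds a single methyl group to arginines, had the smallest p of the 62 genes at 5 µM. On 6 Erbb2 arrays at 10 µM it ran from 0.01 through a median of 0.68 to 1.05. At 5 µM it stood at 0.56, 2.33, 1.37 and -0.13, and on 3 untransfected arrays at -0.11, -1.03 and -0.60. All Erbb2 arrays at 10 µM were above 0 and all untransfected arrays below, though under the other dye label both would lie above 0. Fitted values were 0.48 ± 0.28 with Erbb2 at 10 µM, 1.03 ± 0.33 with Erbb2 at 5 µM (adjusted p = 0.473) and -0.50 ± 0.38 without Erbb2. Setd7, a lysine methyltransferase of histone H3 and other proteins, had 0.65 ± 0.29 at 10 µM and 0.87 ± 0.39 at 5 µM in Erbb2 cells, with 6 of 7 and 4 of 4 arrays above 0, and 0.35 ± 0.39 in untransfected cells. At 5 µM its array 2 stood at 2.27 and the others between 0.35 and 0.48. Without that array the 5 µM values were 0.34 for Setd7 and 0.64 for Prmt7.

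Setd4, a less studied SET-domain methyltransferase, had -0.16 ± 0.48 with Erbb2 at 10 µM, where arrays ran from -2.20 to 1.53. It had the lowest value of the 62 genes with Erbb2 at 5 µM, -1.68 ± 0.74, and without Erbb2, -1.38 ± 0.63. All 3 arrays at 5 µM and all 4 untransfected arrays lay below 0. Prmt1, the main asymmetric arginine methyltransferase, had -0.15 ± 0.15 with Erbb2 at 10 µM, -0.13 ± 0.21 with Erbb2 at 5 µM and -0.53 ± 0.21 without Erbb2, with untransfected arrays at -0.69, -0.86, -0.23 and -0.34. Ezh2, the catalytic subunit of Polycomb repressive complex PRC, had 0.06 ± 0.23 with Erbb2 at 10 µM, -0.36 ± 0.32 with Erbb2 at 5 µM and 0.66 ± 0.32 without Erbb2, and its paralogue Ezh1 had -0.30 ± 0.17 with Erbb2 at 10 µM, 0.07 ± 0.25 with Erbb2 at 5 µM and -0.04 ± 0.25 without Erbb2. Prmt3, an arginine methyltransferase of ribosomal proteins, had the lowest value of the family at 10 µM, -0.88 ± 0.59, which rests on array 3 at -6.29, since the median of its 8 arrays was -0.01. Of the 13 methyltransferases, 0 passed. At an unadjusted p under 0.05 in limma there were 1 with Erbb2 at 10 µM, 3 with Erbb2 at 5 µM and 2 without Erbb2.

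Deacetylases erase acetyl marks and are found in corepressor complexes. Hdac4, a class IIa deacetylase that shuttles between nucleus and cytoplasm, had the smallest p of the 62 genes in untransfected cells. In Erbb2 cells at 10 µM its ratios ran from -0.82 through a median of -0.06 to 0.26, and at 5 µM they were 0.25, 0.43, 0.22 and -0.48. The untransfected ratios were -1.23, -0.49, -0.03 and -1.19. All of these lay below 0, whereas the Erbb2 arrays lay on both sides of it. The fitted values were -0.19 ± 0.17 with Erbb2 at 10 µM, 0.11 ± 0.24 with Erbb2 at 5 µM and -0.74 ± 0.24 without Erbb2, the last with an adjusted p of 0.165. Hdac3, the catalytic subunit of the nuclear receptor corepressor complex, had 0.50 ± 0.27 at 10 µM with 6 of 7 Erbb2 arrays above 0, -0.52 ± 0.36 at 5 µM and -0.01 ± 0.36 in untransfected cells. Hdac5, the closest relative of Hdac4, had 0.51 ± 0.31 with Erbb2 at 10 µM, 0.13 ± 0.44 with Erbb2 at 5 µM and 0.79 ± 0.44 without Erbb2, and Hdac6, the tubulin deacetylase, -0.38 ± 0.23 with Erbb2 at 10 µM, -0.01 ± 0.33 with Erbb2 at 5 µM and -0.03 ± 0.33 without Erbb2.

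Hdac9, another class IIa enzyme, had ratios that split by dye. In Erbb2 cells at 10 µM its 4 arrays with treated RNA in Cy5 stood at 0.19, 0.23, 0.12 and 0.30, and the 4 with it in Cy3 at -0.62, -0.59, -0.30 and -0.10. The 2 dye arrangements did not overlap. The shared dye term of the fit was 0.54 for Hdac9, with an adjusted p of 0.502, and the values were -0.10 ± 0.11 with Erbb2 at 10 µM, -0.14 ± 0.15 with Erbb2 at 5 µM and 0.33 ± 0.15 without Erbb2. Over the 62 genes the dye term had an unadjusted p under 0.05 in limma for 10, or 16.1%, against 1000 of 12420 features, or 8.05%, and it passed for 0 of either. Hdac1 and Hdac2, the paired enzymes of the NuRD, Sin and CoREST complexes, were not tested, since Hdac1 had a ratio on 1 untransfected array and Hdac2 on 2 arrays at 5 µM. Of the 9 deacetylases and sirtuins measured, 0 passed. At an unadjusted p under 0.05 in limma there were 0 with Erbb2 at either dose and 2, Hdac4 and Hdac9, without Erbb2.

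Among the sirtuins, which use NAD, Sirt2 gave a result that depends on the probe. It is mostly a cytoplasmic enzyme that deacetylates tubulin and, in mitosis, histone H4. Averaged over its 2 probes it had -0.13 ± 0.24 with Erbb2 at 10 µM, 0.13 ± 0.34 with Erbb2 at 5 µM and -0.48 ± 0.34 without Erbb2. One probe stood at -0.75, -1.20, -1.27 and -0.82 on the untransfected arrays, for -1.01 ± 0.22, and passed with an adjusted p of 0.0187 when each probe was fitted on its own. The other probe stood at 0.47, 0.26, -0.32 and -0.20, for 0.06 ± 0.57. The first probe was below 0 on every untransfected array and the second on 2 of 4, so the 2 probes give different answers for the same gene.

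Demethylases take methyl groups off again. Kdm2b, which recruits Polycomb proteins to unmethylated CG islands, had -0.11 ± 0.21 with Erbb2 at 10 µM, 0.08 ± 0.30 with Erbb2 at 5 µM and 0.69 ± 0.30 without Erbb2, where its arrays stood at 0.82, 1.27, 0.49 and 0.17. Kdm2a, its relative with the same CG-binding domain, had -0.27 ± 0.14 with Erbb2 at 10 µM, -0.20 ± 0.19 with Erbb2 at 5 µM and -0.26 ± 0.19 without Erbb2. Kdm4b, which acts on heterochromatin marks, had 0.21 ± 0.23 with Erbb2 at 10 µM, 0.24 ± 0.32 with Erbb2 at 5 µM and 0.43 ± 0.32 without Erbb2. Kdm5a and Kdm5b, which remove marks of active promoters, lay between -0.40 and 0.08 in the 3 groups. Of the 5 demethylases, 0 passed, and Kdm2b in untransfected cells was the 1 value with an unadjusted p under 0.05 in limma.

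Remodellers use ATP to slide or eject nucleosomes. Smarca4, the BRG ATPase of the SWI/SNF complex, had the lowest value of the 62 genes in Erbb2 cells at 10 µM. Its ratios on 7 arrays there were -4.26 at the lowest, -1.65 at the median and 0.33 at the highest. At 5 µM they were 1.29, 0.67, 1.54 and -1.49, and on 3 untransfected arrays 1.44, 0.27 and -0.82. At 10 µM 6 of 7 Erbb2 arrays were below 0, while 3 of 4 at 5 µM were above it. The fit gave -1.82 ± 0.505 (adjusted p = 0.15). Leaving out array 5 moved this to -2.26 ± 0.44, which passes in limma (adjusted p = 0.0397). Over all single arrays left out, the value ran from -2.26 to -1.49. A second Smarca4 probe, left out of the fit for having 2 untransfected arrays, gave -0.13, -0.14, 0.37, -1.55, -0.06, 2.02, 1.87 and -0.71 on the 8 Erbb2 arrays at 10 µM. That probe had no common sign across the arrays, and on arrays 6 and 7 it lay well above 0 where the first probe lay at -2.81 and -1.65.

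The partners of Smarca4 in the complex had values nearer 0. Smarcb1, a core subunit lost in rhabdoid tumours, had 0.09 ± 0.19 at 10 µM in Erbb2 cells, and Smarcc1, a scaffold subunit, had -0.32 ± 0.34. Smarca2, the alternative BRM ATPase, had -0.08 ± 0.23, Smarcc2 -0.19 ± 0.13, Smarcd1 0.23 ± 0.18, Smarcd2 0.24 ± 0.36 and Smarce1 -0.53 ± 0.27. These 7 subunits thus lay between -0.53 and 0.24, and none passed. Chd3, an ATPase of the NuRD complex that joins remodelling to deacetylation, had 0.83 ± 0.32 at 10 µM with array 5 at 3.20 and the other 6 between -0.08 and 1.22, and 0.37 without that array. All 4 arrays at 5 µM lay below 0, for -0.49 ± 0.42, and untransfected cells had -0.33 ± 0.42. Its partner ATPase Chd4 had 0.03 ± 0.20 with Erbb2 at 10 µM, 0.21 ± 0.26 with Erbb2 at 5 µM and -0.02 ± 0.26 without Erbb2. Chd1l, a remodeller of DNA repair that answers to poly-ADP-ribose, had -0.29 ± 0.43 with Erbb2 at 10 µM, 1.22 ± 0.71 with Erbb2 at 5 µM and 1.31 ± 0.61 without Erbb2, with all arrays of the last 2 groups above 0 in the mean of its 2 probes. Without array 1 at 5 µM the value there was 0.59. Smarca5, the ISWI ATPase, had 0.20 ± 0.48 with Erbb2 at 10 µM, -1.03 ± 0.79 with Erbb2 at 5 µM and 1.18 ± 0.79 without Erbb2. Of the 15 remodellers, 0 passed. At an unadjusted p under 0.05 in limma there were 2, Smarca4 and Chd3, with Erbb2 at 10 µM and 0 in each of the other groups.

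The comparison of the cell lines asks whether the response to 10 µM differed with Erbb2. Of the 62 genes 0 passed, where 0.813% of all features did, and 10 genes, 16.1%, had an unadjusted p under 0.05 in limma against 9.72% of all features. Of these 10, 8 had lower values in Erbb2 cells, which is 12.9% of the genes against 4.4% of all features in that direction. They were Smarca4, Brd8, Kdm2b, Kat6a, Hmgn2, H3f3b, Hmgn1 and Hdac9, and the other two, Brd3 and Chd3, had higher ones. Brd3 differed by 1.76 ± 0.42 with an adjusted p of 0.0952, and by 2.00 ± 0.37 with an adjusted p of 0.033 without array 5 of Erbb2 cells at 10 µM, which passes. Over all single arrays left out, it differed by 1.39 to 2.09. With the other dye taken for the untransfected arrays the Brd3 difference was 0.07. Without array 1 of untransfected cells the count of 10 became 6, against 9.1% of all features. H3f3b differed by -0.66 ± 0.22 with an adjusted p of 0.258, and Hmgn1 by -0.53 ± 0.18 with an adjusted p of 0.273. Kat6a differed by -0.78 ± 0.30 and Brd8 by -0.91 ± 0.35, both with an adjusted p of 0.353. With the other dye taken for the untransfected arrays, 6 of the 8 lower genes, or 75%, change sign. So do 76.2% of all features that were lower at an unadjusted p under 0.05 in limma as read. The 6 genes move to 0.16 for Brd8, 0.16 for H3f3b, 0.64 for Kat6a, 0.36 for Hmgn2, 0.23 for Hdac9 and 0.58 for Kdm2b. Smarca4 stands at -1.38 and Hmgn1 at -0.31. Under that label 4 genes, 6.45%, were lower at an unadjusted p under 0.05 in limma against 6.73% of all features, and 4, 6.45%, higher against 5.11%. Without array 4 of untransfected cells the Kat6a difference was -0.46. With each probe fitted on its own, 1 probe of Sirt2 passed in this comparison, with an adjusted p of 0.0342 in limma.

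The arrays were also compared by their signs alone. One sign on every array was held by 25 of the 62 genes in untransfected cells, 40.3% against 25.5% of all features, with 16 above 0 and 9 below, or 25.8% and 14.5% against 12.2% and 13.3%. With the other dye for these arrays it would be 9 above and 16 below, and the shares of all features would change places too. Genes with several probes were counted by the mean of their probes. Beside Kat6a, Kat7, Kdm2b, Hmgn2, Hdac9, Brd8, Chd1l and H3f3b, those above 0 included Hdac5, Sirt4, Hmgn3 and Kdm4b. In Erbb2 cells at 5 µM, also with 4 arrays, 13 genes held one sign, 21% against 18.5%. In Erbb2 cells at 10 µM, where 8 arrays make this a harder demand, 3 did, 4.84% against 3.35%, namely Hmgn1 and Brd1 below 0 and Prmt7 above it.

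**Figure D3:**
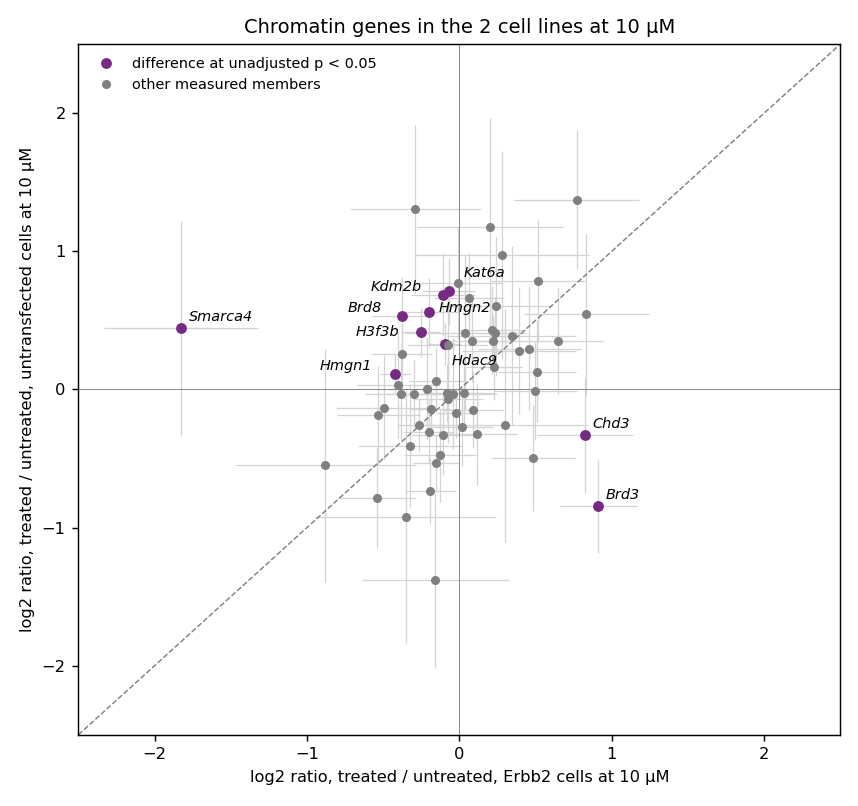
Fitted log2 ratio at 10 µM of each of the 62 chromatin genes in Erbb2 cells (x axis) and in untransfected cells (y axis), with standard errors as grey bars and the line of equal values dashed. The 10 genes whose difference had an unadjusted p under 0.05 are purple and named, 8 of them above the dashed line, and 0 passed after adjustment.

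The comparison of the doses in Erbb2 cells passed for 0 of the 62 genes and 0% of all features. In limma 3 genes, 4.84%, had an unadjusted p under 0.05, against 4.33% of all features. They were Smarca4 with -2.33 ± 0.83, Chd3 with 1.31 ± 0.52 and Hdac3 with 1.02 ± 0.45, each with an adjusted p of 0.998. Without array 5 of Erbb2 cells at 10 µM the Chd3 difference was 0.86. The next were Kat14 with 1.45 ± 0.71 and Suv39h2, a heterochromatin methyltransferase of histone H3, with -0.68 ± 0.35. Suv39h2 ran from -1.73 through a median of -0.08 to 0.47 at 10 µM and stood at 0.07, 0.08, 0.49 and 0.58 at 5 µM, so the doses overlapped. Whether the untreated RNA on the arrays of both doses came from the same cultures is stated in no source used here.

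Probes of the same gene often disagreed. Of the 62 genes, 16 had several probes in the fit, and their probes had opposite signs in 7 genes with Erbb2 at 10 µM, 8 with Erbb2 at 5 µM and 6 without Erbb2. The largest gap between probes of a gene was 2.36 for Chd1l at 10 µM, 2.00 for Sirt7, a nucleolar sirtuin, at 5 µM, and 1.78 for Sirt7 in untransfected cells. The median gap was 0.62 with Erbb2 at 10 µM, 0.38 with Erbb2 at 5 µM and 0.81 without Erbb2. For H3f3b and Smarcc2, by contrast, both probes shared a sign in each group.

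**Figure D4:**
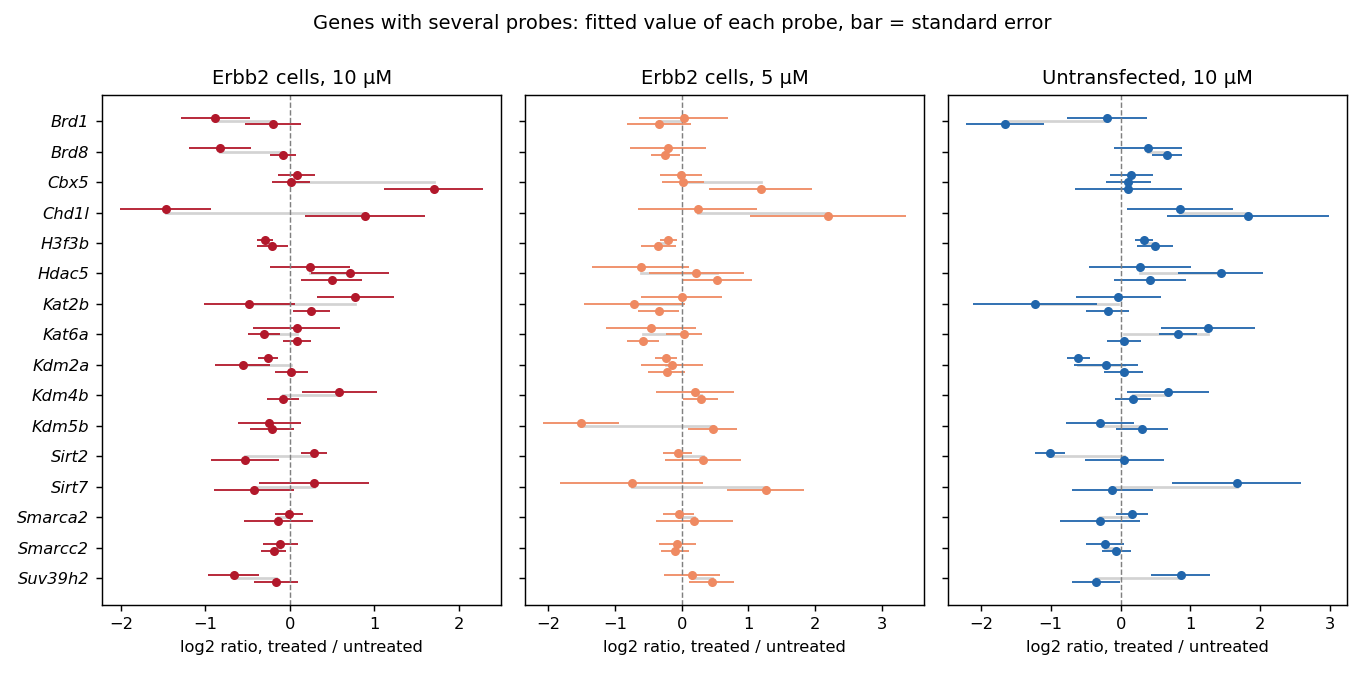
Fitted log2 ratio of each probe (x axis) with its standard error for the 16 chromatin genes with several probes, in Erbb2 cells at 10 µM, Erbb2 cells at 5 µM and untransfected cells at 10 µM. Grey lines join probes of a gene, which lie on opposite sides of 0 in 7, 8 and 6 genes from the left panel to the right.

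Genes of the same complexes that the naming rule does not take were set beside these. Of 95 listed, 58 were measured. In Erbb2 cells 1 passed at 10 µM, where 1.26% of all features did, and 0 at 5 µM, where 0.209% did. In untransfected cells 2 passed, where 2.73% of all features did. At an unadjusted p under 0.05 in limma, 2 were higher and 5 lower with Erbb2 at 10 µM, against 10.8% of all features in either direction. With Erbb2 at 5 µM 0 were higher and 2 lower, against 6.33%. Without Erbb2 2 were higher and 6 lower, against 11.5%. Npm1, the nucleolar histone chaperone nucleophosmin, was lower, at -0.68 ± 0.10 in Erbb2 cells at 10 µM (adjusted p = 0.00261) and -0.63 ± 0.14 in untransfected cells (adjusted p = 0.0251). At 5 µM in Erbb2 cells it had -0.53 ± 0.14 with an adjusted p of 0.258 and 0 of 4 arrays above 0, so it did not pass there. Tbl1x, a subunit of the corepressor complex that holds Hdac3, was lower in untransfected cells, at -0.86 ± 0.16 (adjusted p = 0.00672) and differed between the lines by 0.92 ± 0.20 (adjusted p = 0.0431). In Erbb2 cells at 10 µM it had 0.06 ± 0.11. Under the other dye label Npm1 and Tbl1x would be higher in untransfected cells. The Tbl1x difference between the lines would then change sign, and Npm1 would move in opposite directions in the lines. The median of the 58 genes was -0.07 with Erbb2 at 10 µM, -0.14 with Erbb2 at 5 µM and -0.10 without Erbb2.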

How the data were processed

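RNA of 16 hybridisations on cDNA arrays read in 2 dyes was put into groups by sample title and source name. The deposited values are log2 ratios of the 2 channels, centred near 0 by the authors, and the base is inferred from their range. Image analysis, background correction and normalization are stated in no source used here, and signal over background is unknown. Values above 10, of which the chromatin probes held 12, were taken for placeholders and left out. The label protocol speaks of organs and a pooled reference of animals, and was not used. The labels do not say whether arrays came from separate cultures, so p-values measure only the spread between these arrays.

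Probes were kept with a value on at least 3 of 4 and 6 of 8 arrays of each group and at least 1 array of each dye arrangement, and probes with 1 symbol were averaged by gene, which gave 12420 features. Gene symbols are those of the platform annotation, and promoter windows were matched by Entrez Gene ID, for 60 of the 72 member genes. All 16 arrays entered one limma fit (version 3.58.1, in R 4.3.3 with version 1.17.8 of data.table) with 3 group coefficients and a shared dye term, then eBayes, two-sided and adjusted by Benjamini-Hochberg. Arrays with treated RNA in Cy3 were turned. The mean Pearson's r over probes between arrays of a group was 0.0257, 0.0516 and 0.109 for the same dye, and 0.00388, -0.00267 and -0.0529 for opposite dyes in the order Erbb2 cells at 10 µM, Erbb2 cells at 5 µM, untransfected cells. Between Erbb2 and untransfected cells at 10 µM, r over features was 0.0452 for the part that turns with the dye and -0.0135 for the part that keeps its sign. These small values do not settle the direction.

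Deviations of same-numbered arrays of different groups correlated from -0.107 to 0.133 over 12 pairs. Ratios of arrays of one group with the same dye also correlated weakly, with a mean r from 0.0257 to 0.109. This check therefore could not show whether the numbers pair samples. The genes, families and lists were chosen with earlier results of these data known. Genes named are those past the threshold, the 5 of smallest p in each comparison, the highest and lowest of each family in each group, and 14 measured genes of a written list. Others were named after their values were seen, among them the genes counted by sign, SWI/SNF subunits, Hdac9, Sirt2, Pcna, Npm1 and Tbl1x. Alternatives were leaving out each array, the replicate block, other filters, scaling, probes fitted singly, array weights, separate fits, the deposited signs and the other dye for untransfected cells. The dye arrangement was the 1 batch the labels give.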

Additional observations from a re-analysis of the deposited data

Results flagged for a closer look

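Over 17 of the chromatin genes, 46 groups of 4 to 8 arrays were checked for an array that stood apart, and 6 had one. The cut-off is set to flag about 1 group in 20 of independent, normally distributed values. These 17 genes were picked for small p in the same data, so that rate need not hold here. Other features were not checked, and whether 6 is more than chance gives was not tested. In Erbb2 cells at 10 µM, Brd8 stood at -1.92 on array 1 with the next lowest array at -0.64, Hdac3 at -1.30 on array 1 with the next lowest at 0.38, and Chd3 at 3.20 on array 5 with the next highest at 1.22. At 5 µM, H3f3b stood at -0.54 on array 2 with the next lowest at -0.20, Setd7 at 2.27 on array 2 with the next highest at 0.48, and Kat7 at -1.88 on array 4 with the next lowest at 1.16.

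Prmt7 was above 0 on all 6 Erbb2 arrays at 10 µM that measured it and below 0 on all 3 untransfected arrays. The difference of the fitted values was 0.98 ± 0.48 with an adjusted p of 0.554 in limma, so it did not pass. It was -0.015 when the other dye was taken for the untransfected arrays.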

How the results depend on the processing

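Across 28 alternatives and 5 comparisons, 136 of 140 counts of chromatin genes past the threshold kept the value 0. Leaving out 1 array at a time gave between 0 and 2 in Erbb2 cells at 10 µM and between 0 and 1 in the comparison of the lines; the exceptions to 0 were both without array 5 of Erbb2 cells at 10 µM, with 2 genes (Brd3 and Smarca4) and 1 gene (Brd3). Fitting each probe on its own gave 1, a probe of Sirt2, in untransfected cells and 1 in the comparison of the lines. With the replicate number as a random block, 0 passed in each comparison, with 6, 4, 11, 11 and 4 at an unadjusted p under 0.05 in limma, and the block changed no call. The share of all features is not given beside these counts, so they cannot set the chromatin genes apart from the rest of the array. Without array 2 at 5 µM the median of the 62 genes there became -0.11.

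Taken as deposited, with no array turned, 0 genes passed, and in limma 9 had an unadjusted p under 0.05 in Erbb2 cells at 10 µM, against 1 at the lower dose and 0 without Erbb2. These counts, too, stand without the share of all features and cannot set the chromatin genes apart. The values at 10 µM in Erbb2 cells became -0.21 for Brd3, -0.24 for Chd3, -0.36 for Setd7 and 0.42 for Smarca4. In untransfected cells they became -0.43 for Kat6a and -0.04 for Kat7, between the lines 0.12 for Brd8 and 0.61 for Kat6a, and between the doses -0.31 for Chd3, -0.42 for Hdac3 and 0.17 for Suv39h2. With the other dye for untransfected cells, the median of the 62 genes there became -0.05, and the values 0.85 for Brd3, 0.74 for Hdac4, -0.71 for Kat6a, -1.37 for Kat7 and 0.53 for Prmt1. The differences between the lines became 0.16 for Brd8, 0.16 for H3f3b and 0.64 for Kat6a. Hmgn1 in Erbb2 cells at 10 µM kept its sign under all 28, from -0.48 to -0.09, with adjusted p-values from 0.0513 to 0.878. The cause of these shifts was not tested beyond the turned signs themselves. Without intensities, signal over background is unknown.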
